A study of Homo sapiens with 10 samples.

Results

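The genes described here are 3 receptors of the epidermal growth factor (EGF) family, EGFR, ERBB2 and ERBB3, and 6 ligand genes of EGF receptors, AREG (amphiregulin), EREG (epiregulin), EPGN (epigen), BTC (betacellulin), TGFA (transforming growth factor alpha) and HBEGF (heparin-binding EGF-like growth factor). They were taken by gene symbol and all 9 were found in each of the 10 expression tables, among 20501 named genes in 1 experiment and 22554 genes in the other. The tables come from oesophageal squamous cell carcinoma lines. In the first experiment, KYSE450, KYSE180 and KYSE30 cells each gave 1 library after 72 h with 1000 IU/ml interferon beta (IFN-β), a type I interferon, and 1 library of untreated cells given saline buffer. In the second, KYSE180 and KYSE30 cells each gave 1 library with IRF1-AS knocked down by lentivirus, and 1 library with the vector control. IRF1-AS is transcribed from the strand opposite IRF1, a transcription factor gene that interferons induce, and codes for no protein. No other genetic change or agent is named for any group, and there was 1 library per line and condition, so that the cell lines were the replicates of each treatment.

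EGF receptors are tyrosine kinases of the cell surface that act as pairs. EGFR binds all of the ligands listed above, ERBB2 has no known ligand and serves as a partner, and ERBB3 binds neuregulins and has little kinase activity of its own. The ligands are made as membrane-bound precursors and are released by proteases such as ADAM17 and ADAM10. Receptor signalling runs through the RAS-MAPK and PI3K-AKT cascades, and ERK, the last kinase of the RAS-MAPK cascade, induces genes that feed back on it, among them the DUSP phosphatases and the SPRY proteins. EGFR is a gene of basal squamous epithelium that is often amplified or abundant in squamous carcinomas.

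The values are FPKM, fragment counts divided by transcript length and library size, as the authors deposited them, with a read depth not given in the sources used here. Between 10992 and 12335 genes reached 1 FPKM in a library. Squamous epithelial markers were present throughout, with 10 or 11 of 11 at 1 FPKM or more, but their summed level was 7107 to 8502 FPKM in KYSE450, 4530 to 9992 FPKM in KYSE180 and 388 to 1164 FPKM in KYSE30, over tables normalized separately. None of 5 leukocyte markers reached 1 FPKM in any library, and PTPRC was at 0.09 FPKM at most. Of 8 fibroblast and endothelial markers, 0 to 2 reached 1 FPKM in a library. The 6 interferon-induced genes read as a check summed to 4895 to 5761 FPKM in the IFN-β libraries, against 54.1 to 134 FPKM in the untreated ones. In KYSE180 of the knockdown experiment they summed to 87.6 FPKM with knockdown and 154 FPKM with vector control. In KYSE30 they summed to 420 FPKM with knockdown and 1159 FPKM with vector control, of which ISG15 held 1073 FPKM. The knocked-down RNA, taken by gene identifier, was at 0.948 FPKM in the KYSE180 knockdown library, against 1.08 FPKM in its vector control. In KYSE30 it was at 3.04 FPKM in the knockdown library and 6.86 FPKM in the vector control. The KYSE180 values thus lay close together, and every KYSE180 knockdown value below carries that limit.

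Genome positions follow GENCODE release 29 on GRCh38, and each span covers the exons and introns of a protein-coding gene. EPGN (chr4:74308473-74315307), EREG (chr4:74365143-74388751) and AREG (chr4:74445134-74455009) lie in that order on the forward strand, and BTC (chr4:74744759-74794686) lies beyond them on the reverse strand. The 4 ligand genes fill 486214 bases of chromosome 4. TGFA is on chromosome 2 (chr2:70447280-70554193, reverse strand) and HBEGF on chromosome 5 (chr5:140332843-140346631, reverse strand). The receptor genes lie apart on the forward strand, EGFR at chr7:55019021-55211628, ERBB3 at chr12:56076799-56103505 and ERBB2 at chr17:39687914-39730426. ERBB2 overlaps PGAP3 by 8884 bases and MIEN1 by 1931 bases on the opposite strand, and EGFR overlaps the antisense gene EGFR-AS1 by 9185 bases. With no strand setting stated, reads of these overlaps cannot be assigned to 1 gene. Non-coding rows named EGFR-AS1 summed to 0 FPKM in all 6 libraries of the IFN-β experiment. That sum would also be 0 if no row bore the name, so it does not show whether the gene was measured.

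Start-site windows of the 4 chromosome 4 genes are shown because 3 of these genes, AREG, EREG and EPGN, had their highest level in the same line. Each window runs 5′ to 3′ on the strand of the gene, from 250 bases before to 50 bases after the start site (RefSeq, GRCh38.p14), and capitals mark matches to the motifs listed after the sequences. The windows are chr4:74444886-74445185 for AREG, chr4:74364895-74365194 for EREG, chr4:74308220-74308519 for EPGN, and chr4:74794474-74794773 on the reverse strand for BTC.
AREG: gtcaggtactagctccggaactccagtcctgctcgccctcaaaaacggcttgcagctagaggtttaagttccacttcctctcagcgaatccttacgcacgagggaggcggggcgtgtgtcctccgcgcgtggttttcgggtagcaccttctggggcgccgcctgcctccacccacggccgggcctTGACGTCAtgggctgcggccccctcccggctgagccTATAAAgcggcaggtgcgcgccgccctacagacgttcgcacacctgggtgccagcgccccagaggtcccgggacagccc
EREG: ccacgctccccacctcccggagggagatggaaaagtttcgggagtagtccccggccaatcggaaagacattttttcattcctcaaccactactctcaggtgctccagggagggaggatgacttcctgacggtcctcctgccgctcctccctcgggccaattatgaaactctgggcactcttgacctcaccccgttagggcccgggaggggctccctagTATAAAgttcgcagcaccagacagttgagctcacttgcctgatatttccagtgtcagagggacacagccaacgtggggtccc
EPGN: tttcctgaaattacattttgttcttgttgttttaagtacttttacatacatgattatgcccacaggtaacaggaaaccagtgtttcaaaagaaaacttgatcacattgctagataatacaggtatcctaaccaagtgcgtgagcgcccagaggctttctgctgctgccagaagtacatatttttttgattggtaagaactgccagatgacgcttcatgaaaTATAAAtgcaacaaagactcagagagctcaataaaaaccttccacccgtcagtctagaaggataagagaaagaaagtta
BTC: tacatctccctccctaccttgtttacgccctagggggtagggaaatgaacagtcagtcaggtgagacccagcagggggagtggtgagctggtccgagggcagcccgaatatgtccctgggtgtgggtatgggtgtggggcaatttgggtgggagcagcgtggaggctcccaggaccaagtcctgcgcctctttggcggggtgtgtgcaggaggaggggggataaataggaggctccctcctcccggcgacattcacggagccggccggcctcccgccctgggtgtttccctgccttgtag
The AREG window holds the full cyclic AMP response element TGACGTCA with its first base at position -65, and 1.85% of 35116 windows of the same length hold this element on either strand. A TATA box, TATAAA, starts at -29 in AREG, -32 in EREG and -29 in EPGN, and 11.5% of all windows hold it (searched also as TTTATA). The AP-1 motif TGANTCA is held by 7.71% of windows, the interferon-stimulated response element by 3.57% and the STAT-type motif TTCNNNGAA by 7.66%, on either strand. None of these 3 motifs matched in the windows of the 4 genes, and the BTC window matched none of the 5 motifs. RefSeq windows were found for 8 of the 9 genes. A match is a description of the letters only.

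The clearest pattern among the 9 genes was the separation of KYSE30 from the other lines by its ligands. AREG, EREG and EPGN were each higher in both KYSE30 libraries than in all 4 other libraries of the IFN-β experiment, and the same 3 genes were higher in KYSE30 than in KYSE180 in the knockdown experiment. The receptors varied less. Over the 6 libraries of the IFN-β experiment, the levels of EREG, AREG and EPGN spanned 5.91, 5.08 and 5.03 on the log2(scaled FPKM + 1) scale. BTC, TGFA and HBEGF spanned 1.99, 1.98 and 1.66, and EGFR, ERBB3 and ERBB2 spanned 1.80, 1.34 and 1.17.

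**Figure D1:**
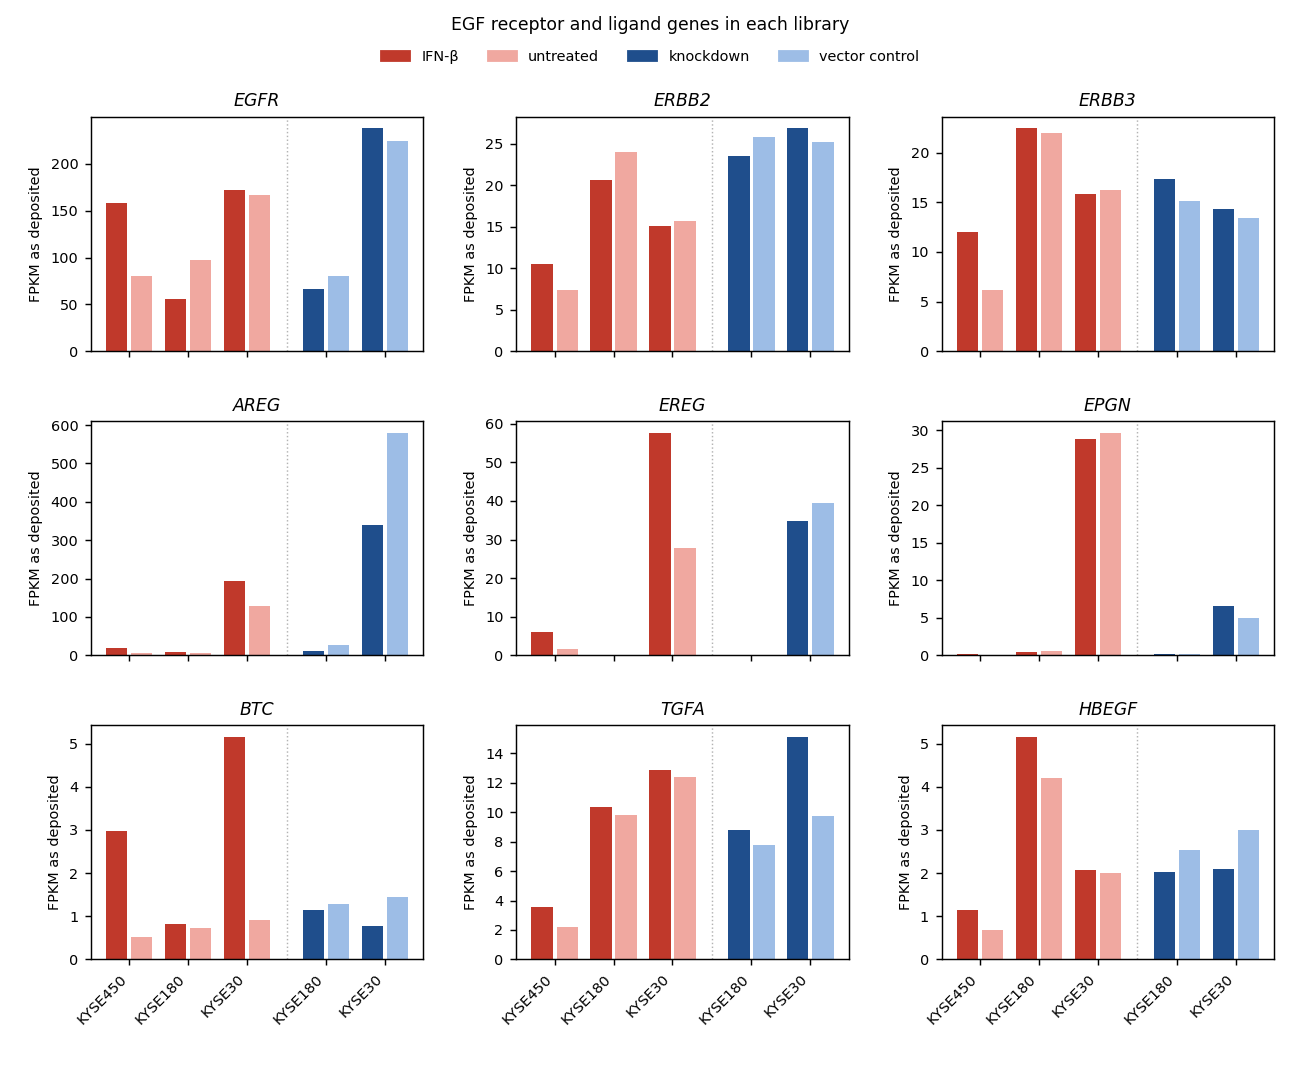
FPKM as deposited (y axes, each starting at 0) of the 9 genes in each of the 10 libraries, with the IFN-β experiment left of the dotted line and the knockdown experiment right of it. AREG, EREG and EPGN stand highest in KYSE30, with AREG at 194 FPKM in the IFN-β library and 128 FPKM in the untreated one.

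Lines were compared with limma on log2(scaled FPKM + 1), with the treatment as a term. These fits rest on 2 libraries a line, 1 of each treatment. The p-values thus measure how unevenly the lines differed under the 2 treatments, and not the spread between independent cultures. Of the 9 genes, 7 were called lower and 0 higher in KYSE450 than in KYSE30 at an adjusted p under 0.05, where 46.8% of 13653 genes tested were called (24.8% lower and 22.1% higher). In KYSE180 against KYSE30, 1 was called higher and 5 lower, where 47.7% of genes were called (22.9% higher and 24.7% lower). In KYSE450 against KYSE180, 2 were called higher and 4 lower, where 49.9% of genes were called (24.4% higher and 25.5% lower). Among the knockdown libraries, 0 were called higher and 4 lower in KYSE180 than in KYSE30, where 28.8% of 12799 genes were called (14.9% higher and 13.9% lower). Differences between lines were thus common over the whole table, and the number of calls among the 9 genes tells little on its own. How many genes differed by as much as the ligands was not counted. KRT5, a squamous marker, differed by more against KYSE30 in the IFN-β experiment, at 9.85 in KYSE450 and 8.90 in KYSE180 on the log2 scale. EPGN in the IFN-β experiment, and EPGN and EREG in the knockdown experiment, passed the filter on low values only through KYSE30, so a difference in them was built into being tested. Without these genes, 0 were called higher and 6 lower of 8 in KYSE450 against KYSE30. In KYSE180 against KYSE30 there were 1 higher and 4 lower of 8, and in KYSE450 against KYSE180 2 higher and 4 lower of 8. The knockdown libraries gave 0 higher and 2 lower of 7, beside 14.9% and 13.9% of all genes. The squamous markers moved with the same lines, with 9 of 11 called higher and 0 lower in KYSE450 and likewise in KYSE180 against KYSE30, and their part in the differences below was not tested.

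AREG, a low-affinity ligand of EGFR, was the most abundant of the 6 ligand genes in KYSE30 and KYSE450. It was at 18.3 FPKM with IFN-β and 6.49 FPKM untreated in KYSE450, at 8.17 FPKM with IFN-β and 5.77 FPKM untreated in KYSE180, and at 194 FPKM with IFN-β and 128 FPKM untreated in KYSE30. The KYSE30 libraries stood far above the rest, while the ranges of KYSE450 and KYSE180 overlapped as deposited. The log2 fold change was -3.78 ± 0.158 (SE, adjusted p = 7.19e-05) in KYSE450 against KYSE30 and -4.55 ± 0.158 (adjusted p = 6.1e-05) in KYSE180 against KYSE30. KYSE450 was above KYSE180 by 0.77 ± 0.158 (adjusted p = 0.00992), a call that was lost without the IFN-β library of KYSE450 (0.59, adjusted p = 0.0742), without scaling (0.61, adjusted p = 0.074) and without the treatment term (adjusted p = 0.121). Over its alternatives that adjusted p lay between 0.00825 and 0.121. In the separately normalized knockdown tables, AREG was at 11.3 FPKM with knockdown and 27.4 FPKM with vector control in KYSE180, against 339.5 FPKM with knockdown and 581 FPKM with vector control in KYSE30, a log2 fold change of -4.65 ± 0.198 (adjusted p = 0.000596). KYSE30 was again far above KYSE180 with no overlap. In these bulk values, fewer cells that express a gene and less RNA per cell cannot be told apart.

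EREG, a ligand that activates EGFR and ERBB4, had the widest range. It was at 6.12 FPKM with IFN-β and 1.61 FPKM untreated in KYSE450, at 0.05 FPKM in both KYSE180 libraries, and at 57.7 FPKM with IFN-β and 27.8 FPKM untreated in KYSE30. The 3 lines did not overlap. The log2 fold change was -3.34 ± 0.295 (adjusted p = 0.00067) in KYSE450 against KYSE30, -5.39 ± 0.295 (adjusted p = 0.000152) in KYSE180 against KYSE30 and 2.05 ± 0.295 (adjusted p = 0.00304) in KYSE450 against KYSE180. The knockdown tables listed EREG at 0 with knockdown and at 0.0701 FPKM with vector control in KYSE180, against 34.8 FPKM with knockdown and 39.4 FPKM with vector control in KYSE30. It was thus close to 0 in all 4 KYSE180 libraries of the series.

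EPGN, a ligand of EGFR with low affinity, was nearly confined to KYSE30 among these libraries. It was at 0.2 FPKM with IFN-β and listed at 0 untreated in KYSE450, at 0.47 FPKM with IFN-β and 0.62 FPKM untreated in KYSE180, and at 28.8 FPKM with IFN-β and 29.7 FPKM untreated in KYSE30. No library of KYSE450 or KYSE180 reached 1 FPKM. The log2 fold change was -4.90 ± 0.177 in KYSE450 against KYSE30 and -4.43 ± 0.177 in KYSE180 against KYSE30. EPGN passed the filter on low values through KYSE30 alone in both experiments, which fixed its direction, so its differences are given as values only. In the knockdown tables it was at 0.218 FPKM with knockdown and 0.193 FPKM with vector control in KYSE180, against 6.53 FPKM with knockdown and 4.93 FPKM with vector control in KYSE30. The margin in the knockdown tables was smaller (log2 fold change -2.51 ± 0.242), and the tables were normalized separately. The calls of AREG and EREG against KYSE30 held under all 13 alternatives of each comparison in the IFN-β experiment.

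TGFA, a high-affinity ligand of EGFR, followed a different order of lines. It was at 3.57 FPKM with IFN-β and 2.23 FPKM untreated in KYSE450, at 10.4 FPKM with IFN-β and 9.82 FPKM untreated in KYSE180, and at 12.9 FPKM with IFN-β and 12.4 FPKM untreated in KYSE30. KYSE450 was below both other lines, with log2 fold changes of -1.89 ± 0.146 (adjusted p = 0.000435) against KYSE30 and -1.37 ± 0.146 (adjusted p = 0.0012) against KYSE180. The difference of KYSE180 from KYSE30 was called at -0.52 ± 0.146 (adjusted p = 0.0311), but not in any fit that left out 1 library (adjusted p 0.0544 to 0.211) nor with no filter on low values (adjusted p = 0.0501) nor without scaling (-0.30, adjusted p = 0.471, which is the highest of its alternatives, with a lowest of 0.0305). In the knockdown experiment it was at 8.78 FPKM with knockdown and 7.75 FPKM with vector control in KYSE180 and at 15.1 FPKM with knockdown and 9.74 FPKM with vector control in KYSE30, which was not called (adjusted p = 0.104).

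HBEGF, which binds EGFR and ERBB4 and is also the receptor of diphtheria toxin, was highest in KYSE180. It was at 1.15 FPKM with IFN-β and 0.67 FPKM untreated in KYSE450, at 5.16 FPKM with IFN-β and 4.2 FPKM untreated in KYSE180, and at 2.08 FPKM with IFN-β and 2 FPKM untreated in KYSE30. The 3 lines did not overlap. KYSE180 was above KYSE30 by 0.72 ± 0.168 (adjusted p = 0.0165) on the log2 scale, and KYSE450 was below KYSE30 by a log2 fold change of -0.73 ± 0.168 (adjusted p = 0.0156) and below KYSE180 by one of -1.45 ± 0.168 (adjusted p = 0.00153). Both calls against KYSE30 were lost without either KYSE30 library, the first also without the IFN-β library of KYSE180 and the second also without either KYSE450 library (adjusted p 0.0712 to 0.153 over these fits, against 0.00648 to 0.153 and 0.012 to 0.144 over all alternatives of the first and second). In the knockdown experiment the lines overlapped, with 2.02 FPKM with knockdown and 2.54 FPKM with vector control in KYSE180 and 2.1 FPKM with knockdown and 3 FPKM with vector control in KYSE30 (adjusted p = 0.649). BTC, a ligand of EGFR and ERBB4, was called in no comparison of lines (adjusted p 0.0654 to 0.893). In the IFN-β experiment BTC passed the filter on low values only through the IFN-β libraries of KYSE450 and KYSE30. Being lower in KYSE180 was thus partly built into being tested, also in the fits that follow for BTC. In KYSE180 against KYSE30 its log2 fold change was -1.64 without the untreated library of KYSE30 and -1.75 without that of KYSE180. Without scaling BTC was called lower there by limma (-0.96, adjusted p = 0.00122). In KYSE450 against KYSE180 BTC stood at 1.18 without the untreated library of KYSE180 and at -0.15 without the IFN-β one.

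EGFR was the most abundant of the receptors in every library and ranked above 91.9% to 99.1% of the genes of its table. It was at 159 FPKM with IFN-β and 80.25 FPKM untreated in KYSE450, at 56.15 FPKM with IFN-β and 97.05 FPKM untreated in KYSE180, and at 172 FPKM with IFN-β and 167 FPKM untreated in KYSE30. KYSE30 was above both other lines, whose ranges overlapped. KYSE180 was below KYSE30 by a log2 fold change of -1.42 ± 0.289 (adjusted p = 0.0105), a call lost without the untreated (-1.51, adjusted p = 0.0753) or the IFN-β (-1.33, adjusted p = 0.102) library of KYSE30, with adjusted p of 6.74e-06 to 0.102 over its alternatives. KYSE450 stood between, at -0.63 ± 0.289 against KYSE30 (adjusted p = 0.127) and 0.80 ± 0.289 against KYSE180 (adjusted p = 0.0652), neither called. The first of these was called without the untreated (adjusted p = 0.0313) or the IFN-β (adjusted p = 0.0326) library of KYSE180, and without scaling (-0.58, adjusted p = 0.0431), with adjusted p of 0.0313 to 0.595 over its alternatives. The second was called without the untreated library of KYSE180 (1.29, adjusted p = 0.013) or of KYSE450 (1.20, adjusted p = 0.0409), and without scaling (0.61, adjusted p = 0.0303), with adjusted p of 0.013 to 0.357 over its alternatives. In the second experiment EGFR was at 66.8 FPKM with knockdown and 80.15 FPKM with vector control in KYSE180, against 238 FPKM with knockdown and 225 FPKM with vector control in KYSE30, a log2 fold change of -1.73 ± 0.191 (adjusted p = 0.00411).

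ERBB2 and ERBB3 were low in KYSE450. ERBB2 was at 10.5 FPKM with IFN-β and 7.41 FPKM untreated in KYSE450, at 20.6 FPKM with IFN-β and 24 FPKM untreated in KYSE180, and at 15.1 FPKM with IFN-β and 15.7 FPKM untreated in KYSE30. ERBB3 was at 12 FPKM with IFN-β and 6.2 FPKM untreated in KYSE450, at 22.4 FPKM with IFN-β and 22 FPKM untreated in KYSE180, and at 15.9 FPKM with IFN-β and 16.2 FPKM untreated in KYSE30. For both genes the KYSE450 libraries were the lowest pair and the KYSE180 libraries the highest. KYSE450 was below KYSE30 by -0.78 ± 0.14 for ERBB2 (adjusted p = 0.00676) and -0.87 ± 0.163 for ERBB3 (adjusted p = 0.00792). It was below KYSE180 by -1.06 ± 0.14 for ERBB2 (adjusted p = 0.00227) and -1.09 ± 0.163 for ERBB3 (adjusted p = 0.00339). Both calls against KYSE180 held in all 13 alternatives, and both against KYSE30 were lost without either KYSE30 library and without the untreated KYSE450 library (adjusted p 0.0502 to 0.103 over these fits, against 0.00548 to 0.0887 for ERBB2 and 0.00704 to 0.103 for ERBB3 over all alternatives). KYSE180 and KYSE30 were not separated for ERBB2 (adjusted p = 0.153) or ERBB3 (adjusted p = 0.306). They were not separated in the knockdown experiment either, where ERBB2 was at 23.5 FPKM with knockdown and 25.8 FPKM with vector control in KYSE180 and at 26.8 FPKM with knockdown and 25.2 FPKM with vector control in KYSE30 (adjusted p = 0.581). ERBB3 was there at 17.4 FPKM with knockdown and 15.2 FPKM with vector control in KYSE180 and at 14.4 FPKM with knockdown and 13.5 FPKM with vector control in KYSE30 (adjusted p = 0.633).

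**Figure D2:**
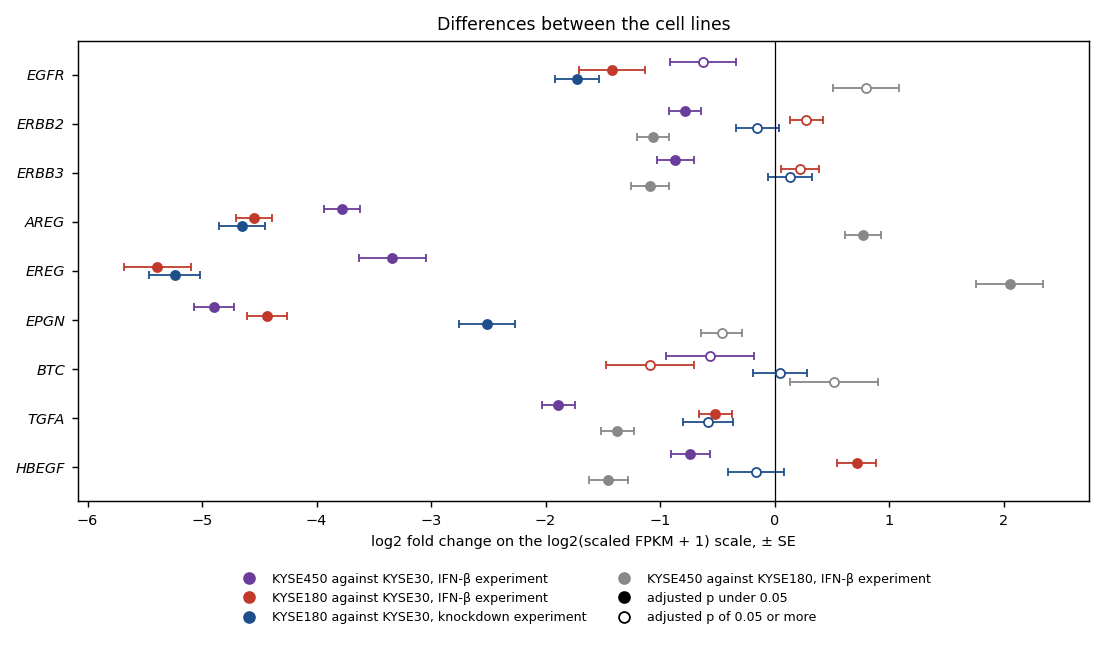
Log2 fold changes between cell lines (x axis, on the log2(scaled FPKM + 1) scale) with standard errors as bars, for each of the 9 genes. Filled points have an adjusted p under 0.05. AREG, EREG and EPGN lie furthest left, from -2.51 to -5.39 in the comparisons with KYSE30. EPGN, and EREG in the knockdown experiment, passed the filter on low values through KYSE30 alone.

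The makeup of the ligand mRNA followed these differences. The 6 ligands summed to 32.4 FPKM with IFN-β and 11.5 FPKM untreated in KYSE450, to 25 FPKM with IFN-β and 21.2 FPKM untreated in KYSE180, and to 301 FPKM with IFN-β and 200.4 FPKM untreated in KYSE30. The KYSE30 sums were thus the highest by a wide margin. AREG made up 56.7% with IFN-β and 56.3% untreated in KYSE450 and 64.6% with IFN-β and 63.7% untreated in KYSE30. In KYSE180 it made up 32.6% with IFN-β and 27.2% untreated, and TGFA was the larger component there, at 41.5% with IFN-β and 46.4% untreated. In the knockdown tables AREG was the largest component in all 4 libraries, with 48.1% with knockdown and 69.8% with vector control in KYSE180, and 85.1% with knockdown and 90.8% with vector control in KYSE30. EGFR made up 56.6% to 87.6% of the summed receptor FPKM over the 10 libraries, lowest in the IFN-β library of KYSE180. The ratio of EGFR to ERBB2 was 15.1 with IFN-β and 10.8 untreated in KYSE450, 2.73 with IFN-β and 4.04 untreated in KYSE180, and 11.4 with IFN-β and 10.6 untreated in KYSE30.

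**Figure D3:**
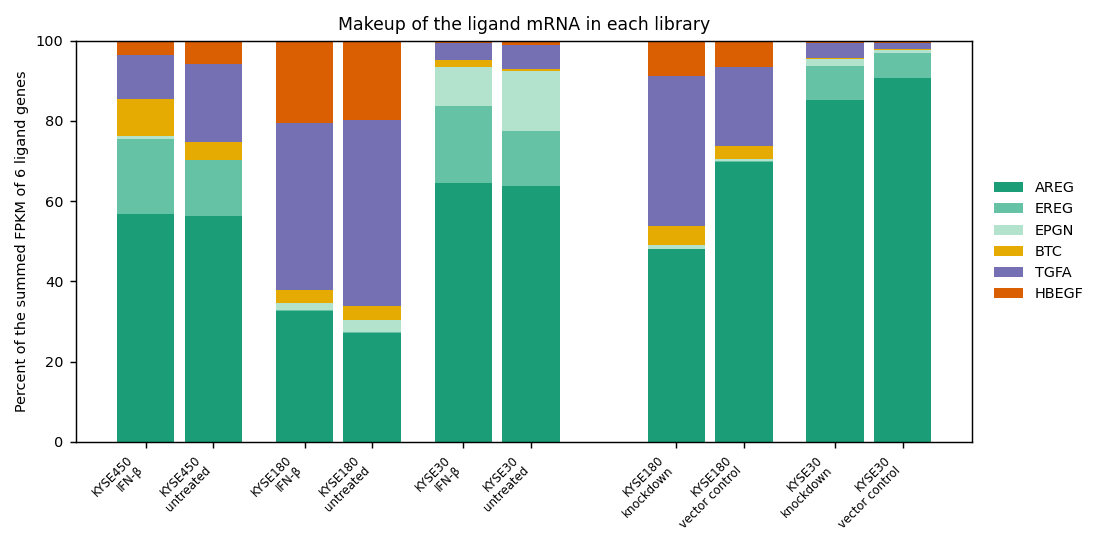
Share of each ligand gene in the summed FPKM of the 6 ligand genes (y axis, percent), 1 bar per library. TGFA holds 41.5% with IFN-β and 46.4% untreated in KYSE180, and AREG holds the largest share in the other 8 libraries.

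The IFN-β comparison asks which genes follow the cytokine across the 3 lines. None of the 9 genes was called. AREG, EREG and BTC had higher values with IFN-β than untreated in KYSE450 and KYSE30, while EGFR differed in opposite directions in KYSE450 and KYSE180. Of the 9 genes 7 were tested and 0 were called by limma with the cell line as a block, where 0.41% of 12428 genes tested were called, all 51 of them higher. At an unadjusted p under 0.05 there were 2 of the 7, AREG and EREG, where 9.74% of genes tested fell under it. The deposited values of KYSE450 carried a shift over all genes, with a median log2 ratio of 0.485 with IFN-β over untreated, against -0.0222 in KYSE180 and -0.0172 in KYSE30, which the scaling removed (-0.0343 in KYSE450 after it). Ratios below are scaled.

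AREG was 1.97 times its untreated level with IFN-β in KYSE450, 1.47 times in KYSE180 and 1.53 times in KYSE30, from the FPKM given above. It was higher in 3 of 3 lines, with a log2 fold change of 0.66 ± 0.13 (SE) and an adjusted p of 0.174, which missed the threshold. Without scaling it was called, at 0.80 (adjusted p = 0.0384), and over its alternatives the adjusted p lay between 0.0384 and 1. In KYSE450 its ratio exceeded that of 96.4% of the genes averaging 1 FPKM, in KYSE180 that of 87.8% and in KYSE30 that of 96%. EREG was 2.65 times its untreated level with IFN-β in KYSE450 and 2.08 times in KYSE30, and was at 0.05 FPKM in both KYSE180 libraries. The log2 fold change over the 3 lines was 0.70 ± 0.237 (adjusted p = 0.486). Without KYSE180 it was called at 1.05 (adjusted p = 0.0496), and over its alternatives the adjusted p lay between 0.0496 and 1. Leaving out that line raised the number of genes called over the whole table to 80.

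BTC was at 2.98 FPKM with IFN-β and 0.52 FPKM untreated in KYSE450, at 0.81 FPKM with IFN-β and 0.72 FPKM untreated in KYSE180, and at 5.16 FPKM with IFN-β and 0.92 FPKM untreated in KYSE30. Only the IFN-β libraries of KYSE450 and KYSE30 passed 1 FPKM. The ratios were 4 in KYSE450 and 5.62 in KYSE30, above those of 98.8% and 99% of genes in these lines, and 1.16 in KYSE180. BTC reached 1 FPKM in too few libraries to be tested, and with no filter on low values its log2 fold change was 0.97 (adjusted p = 0.768). Past 2-fold higher with IFN-β were thus EREG and BTC in KYSE450, where 3.48% of genes passed it, EREG and BTC in KYSE30, where 2.21% did, and none in KYSE180, where 3.99% did. BTC averaged 1 FPKM in KYSE450 and KYSE30 only through the IFN-β libraries, so its upward direction there was built into being ranked and counted. These ratios within a line have no replicate.

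EGFR was 1.38 times its untreated level with IFN-β in KYSE450, 0.599 times in KYSE180 and 1.04 times in KYSE30. The lines differed in direction, and the combined log2 fold change was -0.073 ± 0.234 (adjusted p = 0.929). Its sign turned without scaling (0.082, adjusted p = 0.962) and without KYSE180 (0.26, adjusted p = 0.656), with adjusted p of 0.656 to 1 over its alternatives. Whether the lines differ in this response was not tested, since each has 1 library per arm. ERBB2 had a log2 fold change of -0.075 ± 0.118 (adjusted p = 0.842), which was 0.064 without scaling, and ERBB3 one of 0.15 ± 0.135 (adjusted p = 0.727). HBEGF, at 0.15 ± 0.145 (adjusted p = 0.741), and TGFA, at 0.096 ± 0.123 (adjusted p = 0.806), had slightly higher scaled values in all 3 lines, with ratios of 1.04 to 1.27. EPGN, untested for its low values outside KYSE30, was 0.973 times its untreated level there.

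**Figure D4:**
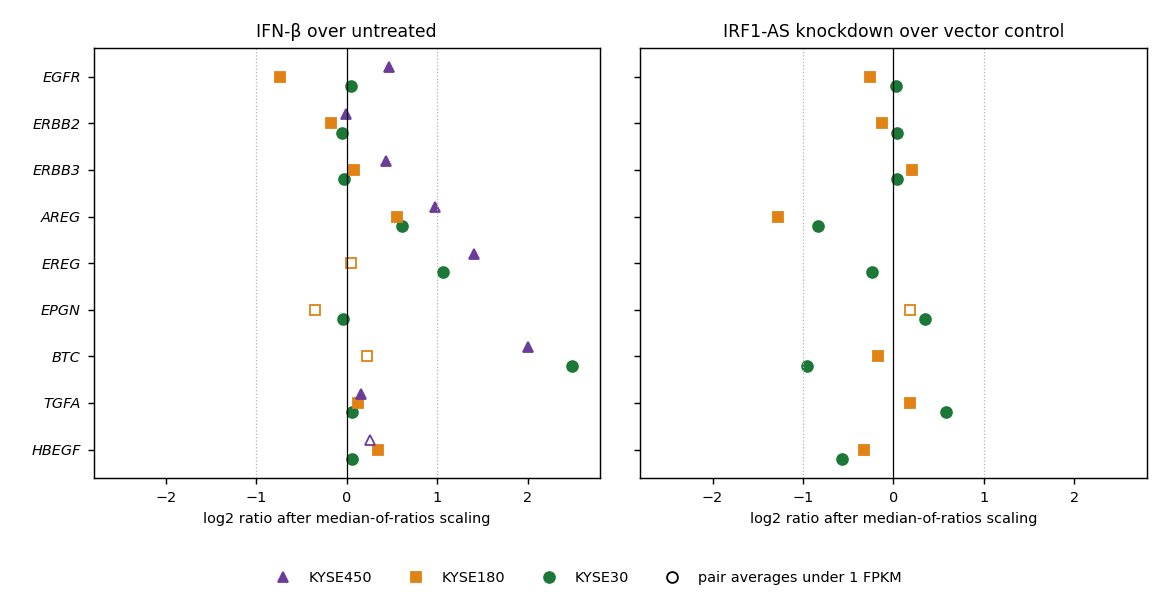
Log2 ratios within each line after scaling (x axes) of the 9 genes, IFN-β over untreated on the left and IRF1-AS knockdown over vector control on the right, with dotted lines at a 2-fold ratio. Pairs with a value of 0 are not drawn. BTC and EREG pass 2-fold with IFN-β in KYSE450 and KYSE30, and AREG passes it downward with knockdown in KYSE180. The BTC pairs of KYSE450 and KYSE30 averaged 1 FPKM only through the IFN-β libraries.

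The knockdown comparison asks which genes depend on IRF1-AS in KYSE180 and KYSE30. None of the 9 genes was called, and neither was any other gene. AREG was lower with knockdown in both lines, with 11.3 FPKM with knockdown and 27.4 FPKM with vector control in KYSE180, and 339.5 FPKM with knockdown and 581 FPKM with vector control in KYSE30. It was thus at 0.413 times the control in KYSE180 and 0.563 times in KYSE30 after scaling. All 9 genes were tested and 0 were called by limma with the cell line as a block, where 0% of 12799 genes tested were called. At an unadjusted p under 0.05 there was 1 of the 9, AREG, where 6.6% of genes tested (845) fell under it. Its log2 fold change was -1.02 ± 0.198 (SE, adjusted p = 0.664). Each gene had 1 residual degree of freedom, so the spread was largely that shared over genes.

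Among the 9 genes, AREG in KYSE180 alone was past 2-fold below control, where 4.7% of genes were, and none was in KYSE30, where 7.21% of genes were. In KYSE180, 2.82% of genes had a smaller ratio. In KYSE30, 9.93% of genes had a smaller ratio than AREG and 7.77% a smaller one than BTC, which was at 0.767 FPKM with knockdown and 1.44 FPKM with vector control (0.514 times). The BTC pair of KYSE30 averaged 1 FPKM only through the vector control, so its downward direction was built into being ranked. In KYSE180, BTC was at 1.15 FPKM with knockdown and 1.29 FPKM with vector control. TGFA was 1.13 times its control with knockdown in KYSE180 and 1.5 times in KYSE30, from the FPKM above, with a log2 fold change of 0.35 ± 0.216 (adjusted p = 0.816). HBEGF was 0.799 times its control in KYSE180 and 0.675 times in KYSE30 (-0.32 ± 0.244, adjusted p = 0.855). For EGFR the log2 fold change was -0.11 ± 0.191 (adjusted p = 0.938), for ERBB2 -0.045 ± 0.188 (adjusted p = 0.983) and for ERBB3 0.11 ± 0.194 (adjusted p = 0.941). EREG (-0.16 ± 0.22, adjusted p = 0.918), EPGN (0.16 ± 0.242, adjusted p = 0.925) and BTC (-0.29 ± 0.236, adjusted p = 0.86) likewise missed the threshold.

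Genes that act with these receptors were read from lists of ligand proteases, receptor brakes, the RAS-MAPK and PI3K-AKT cascades, and ERK feedback and target genes. With IFN-β none of their members was called by limma. At an unadjusted p under 0.05 there were 0 of 7 ligand proteases and trafficking genes, 1 of 12 brakes, 0 of 16 RAS-MAPK genes and 1 of 12 PI3K-AKT genes. The ERK feedback and target genes had a median log2 fold change of 0.29, against -0.01 over all genes tested, with 6 of 21 at an unadjusted p under 0.05, where 9.74% of all genes fell under it. Of these 6, DUSP6, JUNB, MYC, ETV4 and ETV5 had positive log2 fold changes and EPHA4 a negative one, of -0.40 (adjusted p = 0.457). ETV5, an ETS factor induced by ERK, had a log2 fold change of 0.53 ± 0.155 (adjusted p = 0.423). ERRFI1, an inhibitor that binds the EGFR kinase, was at 56.2 FPKM with IFN-β and 19 FPKM untreated in KYSE450, 12.1 FPKM with IFN-β and 9.42 FPKM untreated in KYSE180, and 54 FPKM with IFN-β and 51 FPKM untreated in KYSE30 (0.49 ± 0.19, adjusted p = 0.501). With knockdown, none was called by limma either, and 0 of 8, 0 of 12, 1 of 16, 0 of 12 and, among the ERK genes, 3 of 23 had an unadjusted p under 0.05, where 6.6% of all genes did. HMGA2, a chromatin protein gene on the ERK target list, was at 15.7 FPKM with knockdown and 7.7 FPKM with vector control in KYSE180 and at 199.9 FPKM with knockdown and 79.5 FPKM with vector control in KYSE30 (1.10 ± 0.195, adjusted p = 0.592).

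Between lines, more of the ERK feedback and target genes were called lower than higher against KYSE30, the line with the most AREG, EREG and EPGN. DUSP4, SPRY4 and ETV1 in the IFN-β experiment, and DUSP4 and SPRY4 in the knockdown experiment, passed the filter on low values through KYSE30 alone. This fixed their direction, and they are left out of the counts that follow. SPRY1 in the IFN-β experiment reached 1 FPKM outside KYSE30 only in the IFN-β library of KYSE180 (1.08 FPKM). In the knockdown experiment DUSP6 did so only in the vector control of KYSE180 (1.67 FPKM). Neither would have passed the filter without KYSE30, nor EGR1 in the IFN-β experiment without KYSE180, yet all stay in the counts. In KYSE450 against KYSE30, 3 were called higher and 12 lower of 21 (median log2 fold change -0.77, against -0.01 over all genes), where 22.1% of all genes were called higher and 24.8% lower. In KYSE180 against KYSE30, 4 were called higher and 10 lower of 21 (median -0.60, against -0.02), where 22.9% of all genes were called higher and 24.7% lower. The knockdown tables gave 0 higher and 13 lower of 21 (median -1.49, against 0.01), where 14.9% of all genes were called higher and 13.9% lower. DUSP4, a phosphatase of ERK, was at 0.49 FPKM with IFN-β and 0.08 FPKM untreated in KYSE450, at 0.41 FPKM with IFN-β and 0.37 FPKM untreated in KYSE180, and at 25.8 FPKM with IFN-β and 20.6 FPKM untreated in KYSE30. Its log2 fold changes against KYSE30, -4.36 ± 0.175 (SE) in KYSE450 and -4.24 ± 0.175 in KYSE180, and -5.58 ± 0.209 in KYSE180 of the knockdown experiment, are given as values only. PHLDA1, another early response gene, was lower in KYSE180 than in KYSE30 by -2.93 ± 0.148 (adjusted p = 0.00012) in the IFN-β experiment and -4.02 ± 0.206 (adjusted p = 0.000889) in the knockdown experiment. EPHA2, an ephrin receptor gene, was lower in KYSE450 than in KYSE30 by -3.67 ± 0.165 (adjusted p = 8.8e-05). MYC went the other way in the IFN-β experiment, at 107 FPKM with IFN-β and 39.5 FPKM untreated in KYSE450. In KYSE180 it was at 76.4 FPKM with IFN-β and 69.6 FPKM untreated. In KYSE30 it was at 28.2 FPKM with IFN-β and 24.2 FPKM untreated. What the level of the ligands contributes to these genes was not tested.

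**Figure D5:**
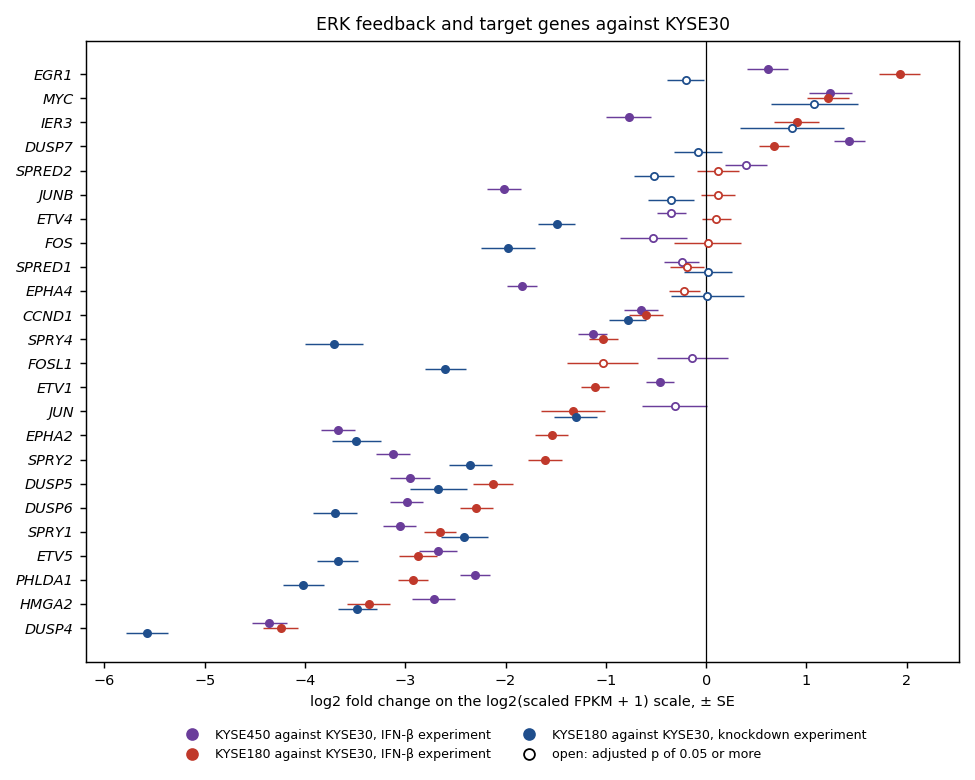
Log2 fold changes against KYSE30 (x axis, on the log2(scaled FPKM + 1) scale) with standard errors as bars, for the ERK feedback and target genes, filled where the adjusted p is under 0.05. Most lie left of 0, with DUSP4 lowest at -4.36 in KYSE450 and at -4.24 and -5.58 in KYSE180. DUSP4, SPRY4 and, in the IFN-β experiment, ETV1 passed the filter on low values through KYSE30 alone, which fixed their direction. SPRY1 in the IFN-β experiment and DUSP6 in the knockdown experiment would not have passed that filter without KYSE30.

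The counts of the other lists stand beside 46.8% of all genes called in KYSE450 against KYSE30 and 47.7% in KYSE180 against KYSE30. Of 12 receptor brakes, 2 were called higher and 2 lower in KYSE450 than in KYSE30, and 4 higher and 2 lower in KYSE180 than in KYSE30, shares close to or below those of all genes. LRIG1, a membrane protein that promotes receptor breakdown, was at 4.97 FPKM with IFN-β and 3.7 FPKM untreated in KYSE450 and at 15.8 FPKM with IFN-β and 11.9 FPKM untreated in KYSE180. In KYSE30 it was at 0.13 FPKM with IFN-β and 0.17 FPKM untreated. It was higher in KYSE450 by 2.23 ± 0.197 (adjusted p = 0.000646) and in KYSE180 by 3.53 ± 0.197 (adjusted p = 0.000152). ERRFI1 was lower in KYSE180 than in KYSE30 by -2.42 ± 0.236 (adjusted p = 0.000866) in the IFN-β experiment and by -3.33 ± 0.267 (adjusted p = 0.00218) in the knockdown experiment. Of 7 genes of ligand shedding and trafficking, 0 were called higher and 5 lower in KYSE450, and 1 higher and 5 lower in KYSE180, against KYSE30, where 24.8% and 24.7% of all genes were called lower. ADAM12, tested through KYSE180 alone, is not counted. ADAM10, a protease that releases EGF receptor ligands, was lower in KYSE450 (-1.38 ± 0.165, adjusted p = 0.00168) and in KYSE180 (-1.41 ± 0.165, adjusted p = 0.0015). Larger differences were those of RHBDL2 (-2.75) and RHBDF1 (-1.56) in KYSE450 and ADAM9 (-1.75) in KYSE180. ADAM17 stood higher in KYSE180, at 59.9 FPKM with IFN-β and 70.3 FPKM untreated. It was at 27.8 FPKM with IFN-β and 19.6 FPKM untreated in KYSE450. In KYSE30 it was at 37 FPKM with IFN-β and 37.2 FPKM untreated. Of 16 genes of the RAS-MAPK cascade, 0 were called higher and 4 lower in KYSE450, and 4 higher and 0 lower in KYSE180, against KYSE30, and 0 in either direction in the knockdown experiment, where 28.8% of all genes were called. Of 12 genes of the PI3K-AKT arm, 1 was called higher and 3 lower in KYSE450, and 2 higher and 4 lower in KYSE180.

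NRG1, which encodes a ligand of ERBB3, was highest in KYSE450 and lowest in KYSE30. It was at 53.6 FPKM with IFN-β and 28.8 FPKM untreated in KYSE450, at 17.2 FPKM with IFN-β and 14 FPKM untreated in KYSE180, and at 6.82 FPKM with IFN-β and 6.4 FPKM untreated in KYSE30, with no overlap between lines. It was higher than in KYSE30 by 2.37 ± 0.15 in KYSE450 (adjusted p = 0.000219), by 0.90 ± 0.15 in KYSE180 (adjusted p = 0.00493), and by 1.13 ± 0.215 in KYSE180 of the knockdown experiment (adjusted p = 0.0172). EGF itself was at 0.39 FPKM with IFN-β and 0.22 FPKM untreated in KYSE450, at 1.95 FPKM with IFN-β and 1.08 FPKM untreated in KYSE180, and at 0.06 FPKM with IFN-β and 0.04 FPKM untreated in KYSE30. It reached 1 FPKM in KYSE180 alone among these lines. It therefore passed the filter through KYSE180 alone.

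Genes next to EGFR on chromosome 7 were read within 500 kb, a window chosen after values were seen. The 3 tested, SEC61G, LANCL2 and VOPP1, were all lower in KYSE180 than in KYSE30 in the IFN-β experiment, where 24.7% of all genes were called lower. In KYSE450 against KYSE30, 1 of the 3, VOPP1, was called lower (-1.59, adjusted p = 0.00102), where 24.8% of all genes were. VOPP1 was at 88.5 FPKM with IFN-β and 65.6 FPKM untreated in KYSE450, at 56.7 FPKM with IFN-β and 52.2 FPKM untreated in KYSE180, and at 207 FPKM with IFN-β and 241 FPKM untreated in KYSE30. Against KYSE30, KYSE180 differed by -2.25 for VOPP1 (adjusted p = 0.000301), -1.92 for LANCL2 (adjusted p = 0.00038) and -1.74 for SEC61G (adjusted p = 0.00654) on the log2 scale. In the knockdown experiment VOPP1 (-1.57, adjusted p = 0.00476) and SEC61G (-1.06, adjusted p = 0.0391) were lower in KYSE180. There 13.9% of all genes were called lower. LANCL2 was not called (-1.15, adjusted p = 0.168), and its difference rested on 1 library. In KYSE180 it was at 12.7 FPKM with knockdown and 10.2 FPKM with vector control. In KYSE30 it was at 63.7 FPKM with knockdown and 9.55 FPKM with vector control. In the chromosome 4 region, 3 neighbours were tested in KYSE180 against KYSE30 of the IFN-β experiment. There 22.9% of all genes were called higher and 24.7% lower. MTHFD2L was lower (-1.55, adjusted p = 0.000996), CXCL1 was higher (3.35, adjusted p = 0.000465) and PARM1 was not called (-0.473, adjusted p = 0.072). In the knockdown experiment 2 of 4 were called higher and 0 lower, CXCL1 (4.82) and CXCL2, which passed the filter through KYSE180 alone. These counts stand beside 14.9% of all genes called higher and 13.9% lower. Around ERBB2, 8 of 19 were higher, with PPP1R1B tested through KYSE180 alone, and 1 lower in KYSE180 in the IFN-β experiment. Around ERBB3, 1 of 30 was higher and 9 lower. The counts around ERBB2 and ERBB3 stand beside 22.9% of all genes called higher and 24.7% lower.

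Genes whose levels followed each pattern most closely were sought among 8834 genes averaging at least 5 FPKM, by the root mean square difference of mean-centred log2 levels over the 6 libraries of the IFN-β experiment. Nearest to EGFR were ZC3H4 (0.119), LIMA1 (0.145) and PPP3CA (0.153). SEMA3A was nearest to both AREG (0.318) and EREG (0.398), followed in each by FAM107B (0.479 for AREG and 0.428 for EREG). SEMA3A, a secreted semaphorin gene, was at 2.8 FPKM with IFN-β and 1.21 FPKM untreated in KYSE450, at 0.16 FPKM with IFN-β and 0.13 FPKM untreated in KYSE180, and at 32.1 FPKM with IFN-β and 21.1 FPKM untreated in KYSE30. Nearest to EPGN were CXXC5 (0.275), SPP1 (0.358) and TFPI (0.382). These libraries share 3 lines, so the likeness is mostly one of level between lines.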

How the data were processed

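Oesophageal carcinoma lines were profiled by RNA sequencing of total RNA, with standard Illumina kits per the labels' protocols. TopHat, HTSeq and hg38 appear in the submitters' processing notes, with neither versions nor roles. The annotation and strand setting are not stated there. The authors deposited 1 table of FPKM values per library, per the file headers. The 2 experiments differ in how the tables were scaled, so each was tested on its own.

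Here, FPKM were divided by median-of-ratios factors computed within each experiment. The filter asked for 1 FPKM or more in at least 3 libraries for IFN-β, and in at least 2 for knockdown and for comparisons of lines. The model was limma 3.58.1 (with trend, robust and statmod 1.5.0, under R 4.3.3) on log2(scaled FPKM + 1), which makes the changes of low genes look smaller than they are. Cell line entered as a block for treatments, and treatment as a term for lines. All genes of a table were fitted, p-values are two-sided and were adjusted by the Benjamini-Hochberg method over all of them, and the threshold was 0.05. The fits were tried on simulated data with independent errors and 200 changed genes averaging at least 5 FPKM. Changes in low genes, such as BTC and HBEGF, were thus not covered by it. Nothing says that the libraries came from separate cultures. With 1 library per line and condition, the p-values measure how far the treatment difference varied between lines, which may be partly technical.

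Libraries of the same number come from the same line. Deviations from the group means, compared across genes between the libraries of 1 line, correlated at 0.876 in KYSE450, 0.841 in KYSE180 and 0.91 in KYSE30 for IFN-β, and at 0.843 in both lines for knockdown.

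The 9 genes, the gene lists and the tests were chosen with earlier results of these data known. From each list the text names called genes by the size of their fold change, or, where none was called, the gene with the smallest unadjusted p. VOPP1, LANCL2, SEC61G, MTHFD2L, CXCL1, CXCL2, PARM1, PPP1R1B and the levels of EGF, ADAM17 and MYC were picked after their values were seen. Start-site windows come from RefSeq (GRCh38.p14) and gene positions from GENCODE 29. The alternatives covered scaling, pseudocount 0.1, filters on low values, the robust option, the block and each library or line left out.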

Additional observations from a re-analysis of the deposited data

How the results depend on the processing

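Where a test could be run in the knockdown experiment, no result of the 9 genes changed direction or its side of the threshold. This held for knockdown against control and for the comparison of lines. With the fits that allowed no test included, the knockdown log2 fold change ran from -0.256 to 0.0266 for EGFR and from -0.126 to 0.0355 for ERBB2. That of BTC in KYSE180 against KYSE30 ran from -0.155 to 0.254. The others of the 9 genes kept their sign in each comparison. The number of genes called with IFN-β was 51 in the fit reported, 237 without scaling (81.4% of them higher, against 100% with scaling), 14 with no filter on low values and 13 with no replicate block, and it lay between 34 and 80 when a line was left out, the highest without KYSE180. The number of the 9 genes called with IFN-β was 0, and 1 without scaling, and between 0 and 1 when a line was left out. Without scaling the log2 fold change with IFN-β was 0.082 for EGFR and 0.064 for ERBB2, each with the sign turned. With a line left out that of EGFR lay between -0.34 and 0.26, the highest without KYSE180. BTC in KYSE450 against KYSE180 lay between -0.15 and 1.18 with 1 library left out, the lowest without the IFN-β library of KYSE180 and the highest without the untreated one. With 1 library left out, KYSE180 against KYSE30 gave 2876 to 6091 genes called (6506 with all) and 3 to 6 of the 9 genes (6 with all). KYSE450 against KYSE30 gave 2716 to 7100 genes (6392 with all) and 4 to 8 of the 9 (7 with all), and KYSE450 against KYSE180 4332 to 6069 genes (6817 with all) and 5 to 8 of the 9 (6 with all). The lowest gene counts against KYSE30 came without its IFN-β library, and that against KYSE180 without the IFN-β library of KYSE450. In the knockdown experiment, KYSE180 against KYSE30 gave 3690 genes, 1157 with no filter on low values and 2303 at an average of at least 5 FPKM. Without scaling, 62% of the calls of KYSE180 against KYSE30 were higher (48.1% with it) and 38.4% of those of KYSE450 against KYSE180 (49% with it). The replicate block (the line for treatments, the treatment for lines) changed 1 call among the 9 genes, AREG in KYSE450 against KYSE180, whose adjusted p was 0.121 without it. Without scaling BTC was called lower in KYSE180 than in KYSE30, and EGFR lower in KYSE450 than in KYSE30 and higher than in KYSE180. BTC passed the filter on low values there only through the IFN-β libraries of KYSE450 and KYSE30. In the fits of the IFN-β experiment without scaling, limma estimated no spread of each gene's own and gave most genes of a level a single spread, so their p-values do not follow the spread between the libraries of that gene. The cause of these changes was not tested. With 1 line or library of the knockdown experiment left out no residual degrees of freedom remained, and no test was possible. FPKM carry no depth, so counting error cannot be given, and values under 1 FPKM, such as those of EREG, EPGN and BTC in KYSE180 of the IFN-β experiment, have unknown precision.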
